A study of Mus musculus with 2 samples.

Results

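The mitochondrial ribosomal protein genes described here are the protein-coding genes of the GENCODE M21 annotation whose symbols start with Mrpl or Mrps. There were 78 of them among 21938 protein-coding genes, 49 with an Mrpl and 29 with an Mrps symbol. Accessible DNA was mapped by ATAC-seq, an assay that uses a transposase to place adapters wherever chromatin is open. The cells were T-helper 1 primary cells of the mouse strain C57BL/6NJ, CD4 T cells specialised in making interferon-γ. Both libraries, biological replicates 1 and 2, belong to 1 group, and there is no other condition, treatment or genotype. Sex was not collected and age is unknown per the labels, and both replicates carry the same donor identifier, so it is not known whether they came from separate animals. Nothing could therefore be compared between conditions, and each gene is given with its values in replicate 1 and replicate 2, in that order, in place of a mean and an error.

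The deposited lists held 98875 and 91488 open regions. The number of reads behind them is not in the lists, so the depth is unknown. The marker genes of the labelled cell type were open in both replicates for 6 of 6 genes, among them the T cell receptor gene Cd3e (signal 9.06 and 9.71) and Cd4 (2.29 and 2.33). The others were Tbx21 (5.48 and 5.65), Ifng (7.25 and 6.55), Il12rb2 (6.58 and 6.25) and Cxcr3 (3.57 and 3.03). Of the markers of other cell types, 1 of 4 B cell genes (Pax5, 11.2 and 10.7), 1 of 4 myeloid genes (Cd14, 8.29 and 8.10), 1 of 3 CD8 and NK cell genes (Klrb1c, 18.3 and 16.1) and 1 of 2 hepatocyte genes (Apoa1, 13.8 in both) had a promoter region in both. Lyz2 had one in replicate 1 only, at 2.91. No promoter region was listed in either replicate at Ms4a1, Cd79a, Csf1r, Adgre1, Cd8a, Ncr1, Hba-a1 or Alb. The part of other cells in the values below was not tested.

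Mitochondria carry their own ribosomes, which translate the few proteins encoded by mitochondrial DNA, all of them core subunits of the respiratory chain and ATP synthase. The ribosomal RNAs of these ribosomes come from mitochondrial DNA, while every protein is encoded in the nucleus, made in the cytosol and imported. Some of the proteins descend from bacterial ribosomal proteins and others are found only in mitochondrial ribosomes. Activated T cells are known to expand their mitochondria and to depend on mitochondrial translation for effector functions. Nuclear genes of mitochondrial function are known for promoters bound by ETS-family factors such as GABP (once named nuclear respiratory factor 2), by NRF1 and by YY1.

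All promoters of the set were open. A region of each list lay within 1 kb of an annotated start, with the 2 regions overlapping, at 78 of 78 genes (100%), against 65.7% of all protein-coding genes. The strongest such region of each replicate is called the promoter region below, and its signal is the enrichment value in column 7 of the lists. The region covered the representative start of the gene, taken from its best-supported coding transcript, in both replicates at 75 of 78 genes (96.2%). Among the 14417 protein-coding genes with a promoter region in both replicates, called open genes below, it did so at 76.7%. Within the gene and its 20 kb flanks, the promoter region had the highest signal of all regions in both replicates at 47 of 78 genes (60.3%), against 36.7% of open genes.

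The signal ranged from 4.75 to 21.0 in replicate 1, with a median of 13.3 and quartiles of 10.9 and 16.0. In replicate 2 it ranged from 5.08 to 20.4, with a median of 13.1 and quartiles of 10.5 and 15.6. The medians of the open genes were 11.3 and 11.1. As a percentile among open genes, averaged over the replicates, the median gene of the set stood at 67.2. By −log10 q, the caller's measure of confidence, the median percentile was 56.3, with medians of 240 and 214 against 213 and 179. The set thus lay further above the middle of open genes by signal than by confidence.

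**Figure D1:**
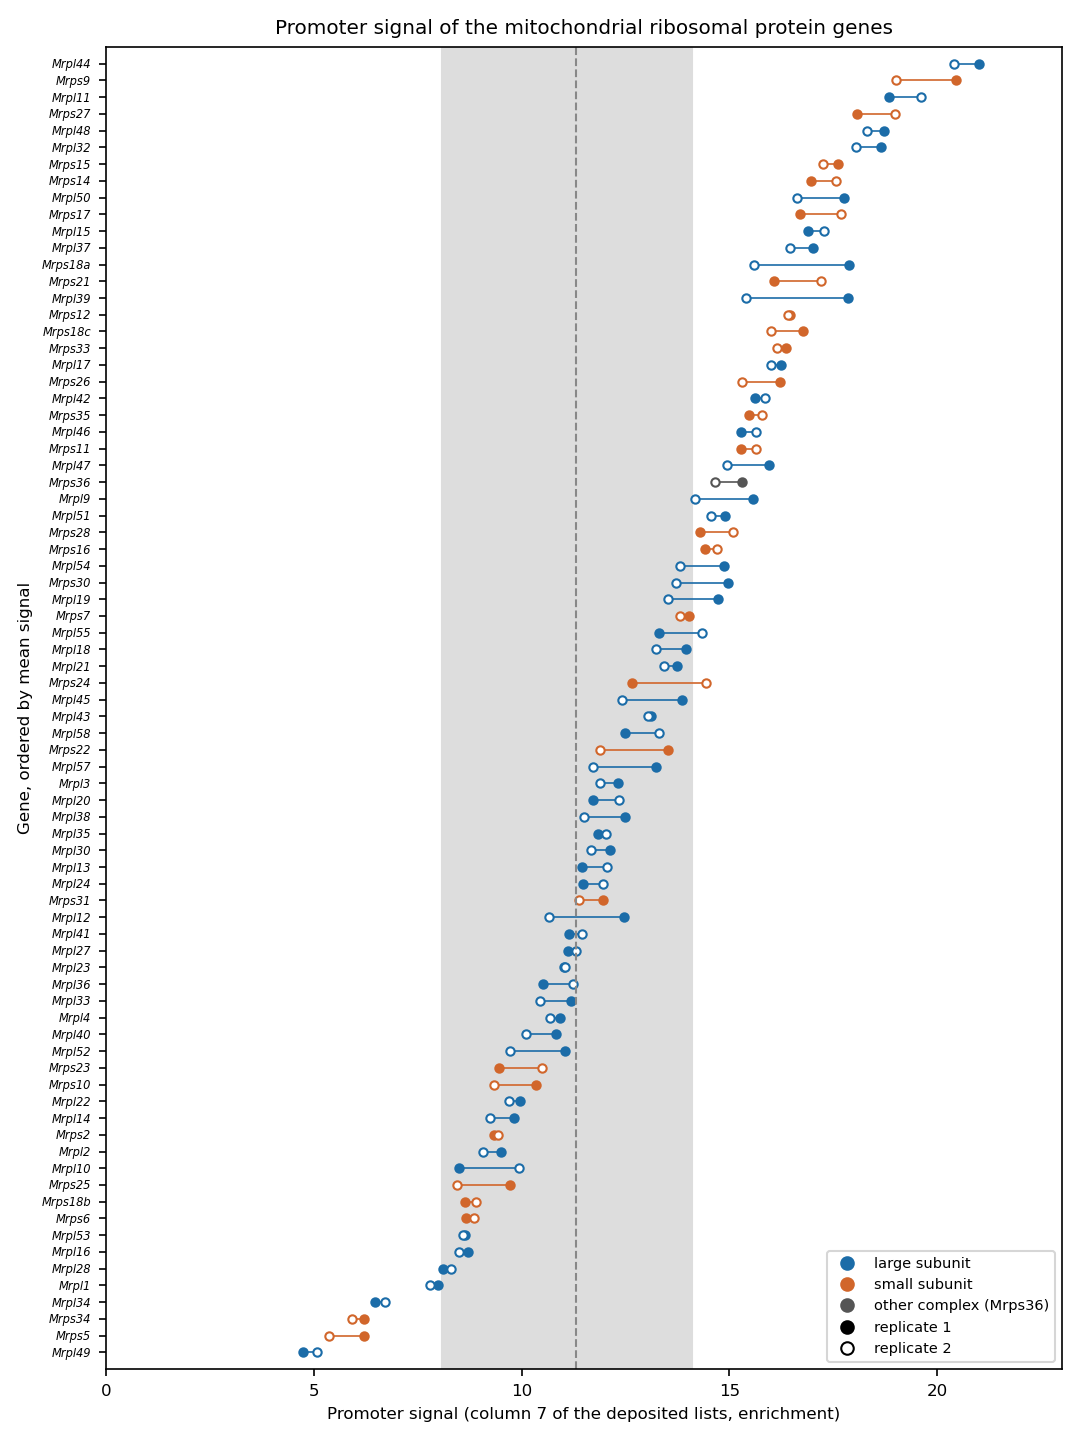
Promoter signal (enrichment, linear axis from 0) of the 78 genes in replicate 1 (filled) and replicate 2 (open), ordered by the mean of both, with colours for the subunit. The dashed line and grey band give the median (11.3) and the quartiles of the 14417 open protein-coding genes in replicate 1, and the genes run from Mrpl49 at 4.75 and 5.08 to Mrpl44 at 21.0 and 20.4.

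The highest signal was at Mrpl44, a large-subunit protein with a ribonuclease III-like fold, with 21.0 in replicate 1 and 20.4 in replicate 2, at percentile 99.9 of open genes. Mrps9, a small-subunit protein of bacterial descent, followed with 20.4 and 19.0. Mrpl11, a protein of the factor-binding stalk base, had 18.8 and 19.6. These 3 genes were among the strongest promoters in both replicates. Mrps27, a pentatricopeptide-repeat protein of the small subunit, had 18.1 and 19.0. Mrpl48, a mitochondria-specific large-subunit protein, had 18.7 and 18.3. Below the first place, the order among these 5 genes differed between replicates.

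The lowest signal was at Mrpl49, a mitochondria-specific large-subunit protein, with 4.75 and 5.08, at percentile 8.28. Mrps5, a small-subunit protein of bacterial descent, had 6.21 and 5.36. Mrps34, a mitochondria-specific small-subunit protein, had 6.22 and 5.93. In replicate 1 the gap between Mrps5 and Mrps34 was smaller than that between the replicates of either gene. Mrpl34, a short large-subunit protein, had 6.48 and 6.71, and Mrpl1, the protein of the mobile stalk beside the exit site for transfer RNA, had 7.98 and 7.81. By the mean of both replicates, the other 68 genes lay between these and the 5 highest. In replicate 1 alone, Mrpl32 (18.6) stood above Mrps27 (18.1).

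Replicates differed little at these promoters. The signal differed by over 1.5-fold between replicates at 0 of 78 genes, against 0.673% of open genes. The median fold was 1.05 in the set and in open genes. Differences were widest at Mrpl10 (8.49 and 9.95, 1.17-fold) and Mrpl12 (12.5 and 10.7, 1.17-fold), which encode neighbouring proteins of the ribosomal stalk. Mrpl39 (17.8 and 15.4), Mrps5 and Mrps25 (9.73 and 8.46) followed at 1.16, 1.16 and 1.15-fold. Replicate 1 was the higher at 47 of 78 genes (60.3%), against 61.5% of open genes. The −log10 q was higher in replicate 1 at 74 of 78 genes (94.9%), against 88.6% of open genes. Across the 78 genes, which are not independent replicates and of which Mrpl46 and Mrps11 share a region, the signals of the replicates were correlated with Spearman's rho of 0.971 and Pearson's r of 0.972.

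Sequences upstream of some of these genes are shown to set promoters near the top and at the bottom of the signal order beside promoters that hold the motifs of the 3 factors named above. The letters searched, on both strands, were CCGGAAG for ETS factors, GCGCNTGCG for NRF1 and AAGATGGCG for YY1. Capitals mark complete matches to 1 of these 3. Each stretch ends at the base before the representative start, which is position 0, runs 5′ to 3′ in the direction of the gene, is free of annotated exons and was read from the RefSeq sequence of GRCm38.p6, the assembly of mm10. Mrps9 has the second highest signal by the mean of both replicates. Its NRF1 match begins at −5 and so runs past the end of the stretch. Mrpl49 has the lowest signal, and its 58 bases are all that separates it from Fau, which encodes a cytosolic ribosomal protein.
Mrps9, chr1:42851033-42851232, plus strand: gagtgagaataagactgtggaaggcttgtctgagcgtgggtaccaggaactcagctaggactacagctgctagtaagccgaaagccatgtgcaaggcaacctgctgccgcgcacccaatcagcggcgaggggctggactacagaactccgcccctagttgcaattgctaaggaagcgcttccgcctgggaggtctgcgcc
Mrpl49, chr19:6057786-6057843, minus strand: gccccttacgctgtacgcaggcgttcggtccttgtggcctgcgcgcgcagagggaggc
The next 4 stretches hold an ETS match, at −50 in Mrpl22, at −56 and −12 in Mrpl43, at −48 in Mrps27 and at −8 in Mrps18a. Mrpl22 also holds an NRF1 match at −30, and Mrpl43 holds one at −79.
Mrpl22, chr11:58171461-58171660, plus strand: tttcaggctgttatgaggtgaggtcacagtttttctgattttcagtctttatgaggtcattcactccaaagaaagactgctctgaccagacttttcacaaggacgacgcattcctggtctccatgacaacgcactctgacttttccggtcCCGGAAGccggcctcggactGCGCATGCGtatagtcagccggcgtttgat
Mrpl43, chr19:45006443-45006557, minus strand: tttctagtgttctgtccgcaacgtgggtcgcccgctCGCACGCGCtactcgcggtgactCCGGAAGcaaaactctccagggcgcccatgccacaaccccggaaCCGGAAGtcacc
Mrps27, chr13:99344706-99344785, plus strand: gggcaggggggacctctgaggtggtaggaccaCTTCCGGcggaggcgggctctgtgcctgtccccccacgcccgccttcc
Mrps18a, chr17:46110786-46110985, plus strand: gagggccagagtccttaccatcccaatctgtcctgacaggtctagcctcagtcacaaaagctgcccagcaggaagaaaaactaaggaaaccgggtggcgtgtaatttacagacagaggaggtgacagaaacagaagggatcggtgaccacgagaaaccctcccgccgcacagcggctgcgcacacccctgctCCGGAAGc
Mrpl45, a mitochondria-specific large-subunit protein, is shown for its NRF1 matches at −119 and −37, beside another at +15 that is not shown.
Mrpl45, chr11:97315516-97315715, plus strand: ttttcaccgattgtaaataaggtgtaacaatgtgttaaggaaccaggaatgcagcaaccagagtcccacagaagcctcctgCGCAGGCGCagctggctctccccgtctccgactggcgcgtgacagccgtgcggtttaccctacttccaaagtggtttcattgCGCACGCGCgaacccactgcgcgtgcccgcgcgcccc

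The ETS motif showed the widest gap to other genes in percentage points, and the YY1 motif the widest as a ratio. From 250 bp before to 50 bp after the start, it was present in 29 of 78 promoters (37.2%), against 11.2% of all protein-coding genes with a coding start and 15.8% of open genes. NRF1 was present in 15 (19.2%), against 8.72% and 12.1%. YY1 was present in 8 (10.3%), against 1.85% and 2.73%. Any of the 3 was found in 43 of 78 promoters, against 19.5% of all genes, and 9 held 2 different ones, against 2.08%. Those 9 were Mrps27, Mrps18a and Mrps10 with ETS and YY1, and Mrps21, Mrpl17, Mrps26, Mrpl43, Mrpl57 and Mrpl22 with ETS and NRF1. The ETS letters occurred at 2 places in Mrpl43, Mrpl52, Mrpl58 and Mrps34, and 1.95% of all genes held 2 or more. No match says only that these letters are missing from the window, and a match is not a bound site.

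In percentage points, the other motifs lay closer to the share in open genes than these 3 did. SP (GGGCGGG) was present in 33 promoters (42.3%), against 33.5% of all and 45.7% of open genes. NF-Y (CCAATNNG) was present in 11 (14.1%), against 16.1% and 18%. CRE (TGACGTCA) was present in 2 (2.56%), Mrpl16 and Mrpl49, against 2.48% and 3.19%. The TATA letters (TATAAA) were present in 7 (8.97%), against 12.6% and 7.56%. The ZNF143 letters (ACTACAATT) were present in 0, against 0.563% and 0.689%. Of 2 motifs of T cell factors, AP-1 (TGANTCA) was present in 4 (5.13%), against 6.68% and 5.08%, and RUNX (TGTGGTT) in 5 (6.41%), against 4.88% and 3.89%. The ratio of observed to expected CpG had a median of 0.822 in the same windows, against 0.734 in open genes.

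**Figure D2:**
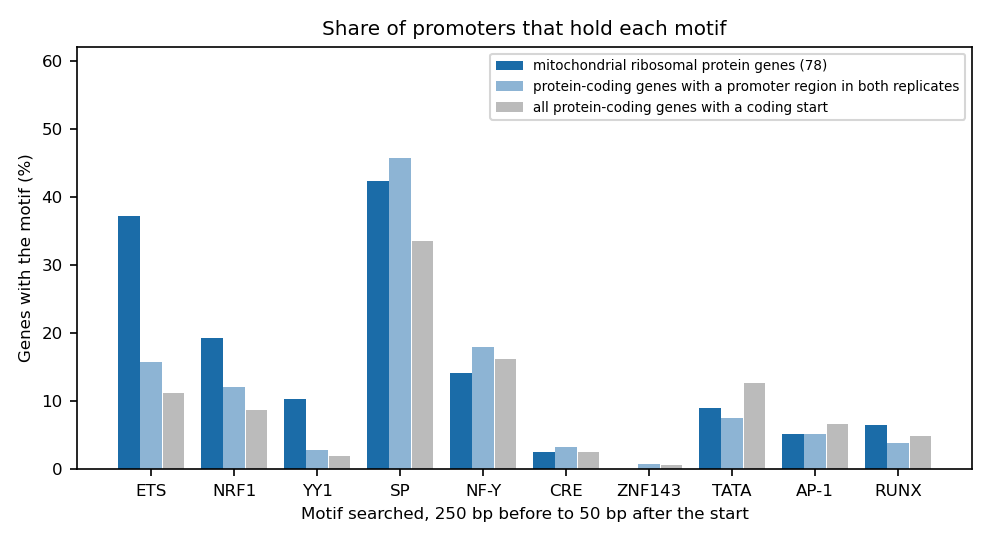
Percentage of promoters holding each of the 10 motifs from 250 bp before to 50 bp after the start, for the 78 genes (dark blue), the open protein-coding genes (light blue) and all protein-coding genes with a coding start (grey). ETS stands at 37.2% against 15.8% and 11.2%, and SP, NF-Y and AP-1 stand near the share of open genes.

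The ETS matches lay close to the start. Of 33 matches, 31 (93.9%) were centred between −100 and +49, against 76.1% of the matches of all genes. The median was −9, against −33. In 12 genes, such as Mrpl18, Mrpl20 and Mrps12, a match began at or after the start, a count that was not made over all genes. The 20 NRF1 matches had a median of −28, against −52. Within 100 bp on either side of the start, ETS was present in 35 genes (44.9%), against 9.64% of all. Around the summits of the promoter regions it was present in 23 genes in both replicates (29.5%), against 14.3% and 14.1% of open genes.

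**Figure D3:**
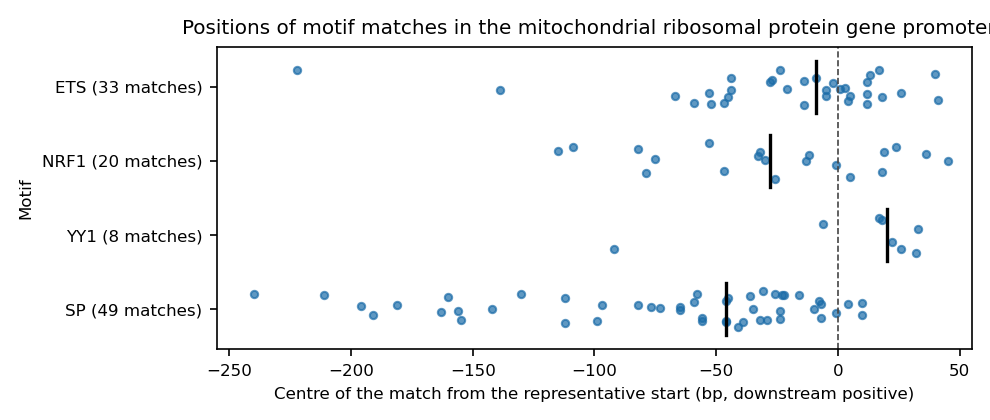
Distance in bp from the representative start to the centre of each match of 4 motifs in the 78 promoters, downstream positive, with 1 point per match and a bar at the median. ETS matches gather around the start (median −9), 6 of the 8 YY1 matches lie downstream of it, and SP matches are spread upstream (median −46).

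The YY1 matches lay near or within the beginning of the gene. Of 8 matches, 6 (75%) read in the direction of the gene, near the 69.8% of the 417 matches over all protein-coding genes, and these 6 began between +13 and +29. The centres had a median of +20, against +9 over all genes. The 25 bases around each of these 6 are shown to make this arrangement visible, with the match in capitals.
Mrps27, chr13:99344792-99344816, plus strand: tgcgctccAAGATGGCGgctcccat
Mrpl37, chr4:107066824-107066848, minus strand: cacgggcaAAGATGGCGgcgtccag
Mrps18a, chr17:46111007-46111031, plus strand: tgcgttccAAGATGGCGgccctcag
Mrpl42, chr10:95501906-95501930, minus strand: attgaagcAAGATGGCGagcgcgcg
Mrps24, chr11:5707649-5707673, minus strand: gccggcccAAGATGGCGtggtccgc
Mrps10, chr17:47368896-47368920, plus strand: agggcaccAAGATGGCGgcgcgcgc
The letters hold an ATG, and in 4 of the 6 (Mrps27, Mrps18a, Mrps24 and Mrps10) that ATG is an annotated start codon of the gene. Over all protein-coding genes, 131 of 291 matches in the direction of the gene had this property. The other 2 matches, in Mrps11 at −96 and in Mrpl36 at −10, read in the opposite direction. By their strongest promoter region, the 8 genes with a YY1 match ran from Mrps27 (18.1 and 19.0) to Mrps10 (10.4 and 9.33) in signal. In Mrps10 and Mrpl36 that region does not cover the match. The regions that do, at the representative starts, had 8.24 and 8.01 in Mrps10 and 7.04 and 7.25 in Mrpl36.

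Holding the ETS letters did not go with a higher signal. The 29 genes with ETS had medians of 12.5 and 11.9 and a median percentile of 61.4, and the 49 without it had medians of 13.9 and 13.7 and a median percentile of 73.9. The ranges overlapped, from 6.22 to 18.7 with ETS and from 4.75 to 21.0 without in replicate 1. The regions with ETS were the wider, with median widths of 1346 and 1362 bp against 1078 and 1157 bp. Of the 10 genes highest in mean signal, 5 held none of ETS, NRF1 and YY1, namely Mrpl11, Mrps15, Mrps14, Mrpl50 and Mrps17. In the whole set, 35 genes held none of these motifs and 43 held 1 or more. Of all protein-coding genes with a coding start, 80.5% held none. The 10 highest genes thus did not stand apart from the rest of the set by this count.

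Many of the genes start back to back with another gene. A coding gene on the other strand started within 1 kb at 31 of 78 genes (39.7%), against 10.3% of all protein-coding genes and 15% of open genes. The starts were 16 to 935 bp apart, with a median of 83 bp, and 27 of the 31 lay within 300 bp. At 28 of the 31 the strongest promoter region was the same for both genes, so that its signal cannot be assigned to either. The exceptions were Mrpl13 with Mtbp, Mrpl41 with Pnpla7, and Mrps5 with Zfp661. At Mrps5 the region had 6.21 and 5.36, and the strongest promoter region of Zfp661 had 13.1 and 12.5.

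Mrpl46 and Mrps11, of the large and the small subunit, are the pair within the set. Their starts are 30 bp apart, and both share a region of 15.3 and 15.6, with a summit 20 bp downstream of the Mrpl46 start in both replicates. Some other neighbours also work in mitochondria, and how many of all neighbours do so was not counted. Mrps12, a protein of the decoding centre, starts 182 bp from Sars2, the mitochondrial seryl-tRNA synthetase, in a region of 16.5 and 16.4. Mrpl43 starts 116 bp from Twnk, the helicase of mitochondrial DNA replication, at 13.1 and 13.0. Mrps27 starts 81 bp from Ptcd2, a pentatricopeptide-repeat protein, at 18.1 and 19.0. Mrpl47 shares 16.0 and 14.9 with Ndufb5, a subunit of respiratory complex I, with annotated starts 20 bp apart.

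Further neighbours belong to other processes. Mrpl44 has an annotated start 125 bp from one of Wdfy1. Mrpl32 starts 75 bp from Psma2, a proteasome subunit, in a region of 18.6 and 18.04. Mrpl50 (17.8 and 16.6) lies beside Zfp189, a zinc-finger gene, and Mrpl37 (17.0 and 16.5) beside Cyb5rl. Mrps18c starts 29 bp from Helq, a DNA helicase, at 16.8 and 16.0. The stretches between the starts of Mrpl46 and Mrps11 and of Mrps18c and Helq are shown as examples of the short space that both genes share, with the first written in the direction of Mrps11. The stretch of Mrps18c holds an ETS match at −24.
Mrps11, chr7:78783090-78783118, plus strand: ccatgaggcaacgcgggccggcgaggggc
Mrps18c, chr5:100798599-100798626, plus strand: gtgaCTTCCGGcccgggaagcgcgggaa
The 31 genes with such a neighbour had median signals of 13.9 and 13.4 and median widths of 1328 and 1384 bp. The 47 without one had 12.5 and 12.4, and 1134 and 1160 bp. The median percentiles were 71.6 and 63.6 by signal, and 69.2 and 50.6 by −log10 q.

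The classes of proteins overlapped in signal. The 30 large-subunit proteins with a bacterial homolog had median signals of 11.6 and 11.8, with values from 6.48 (Mrpl34) to 18.8 (Mrpl11) in replicate 1. The 21 mitochondria-specific proteins of the large subunit had 13.9 and 13.7, and held both the highest gene of the set, Mrpl44, and the lowest, Mrpl49. The 17 small-subunit proteins with a bacterial homolog had 14.4 and 15.1, and the 9 mitochondria-specific ones 13.5 and 11.9. Their median percentiles among open genes were 54.8, 73.9, 81.4 and 63.6, and by −log10 q 45.0, 65.3, 69.2 and 54.8. Mrps18a and Mrps30 were counted with the large subunit, where their proteins sit in spite of their symbols. Mrps36, known as a subunit of the oxoglutarate dehydrogenase complex, had 15.3 and 14.7. In replicate 1 each of these 4 classes spanned both quartiles of the whole set.

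**Figure D4:**
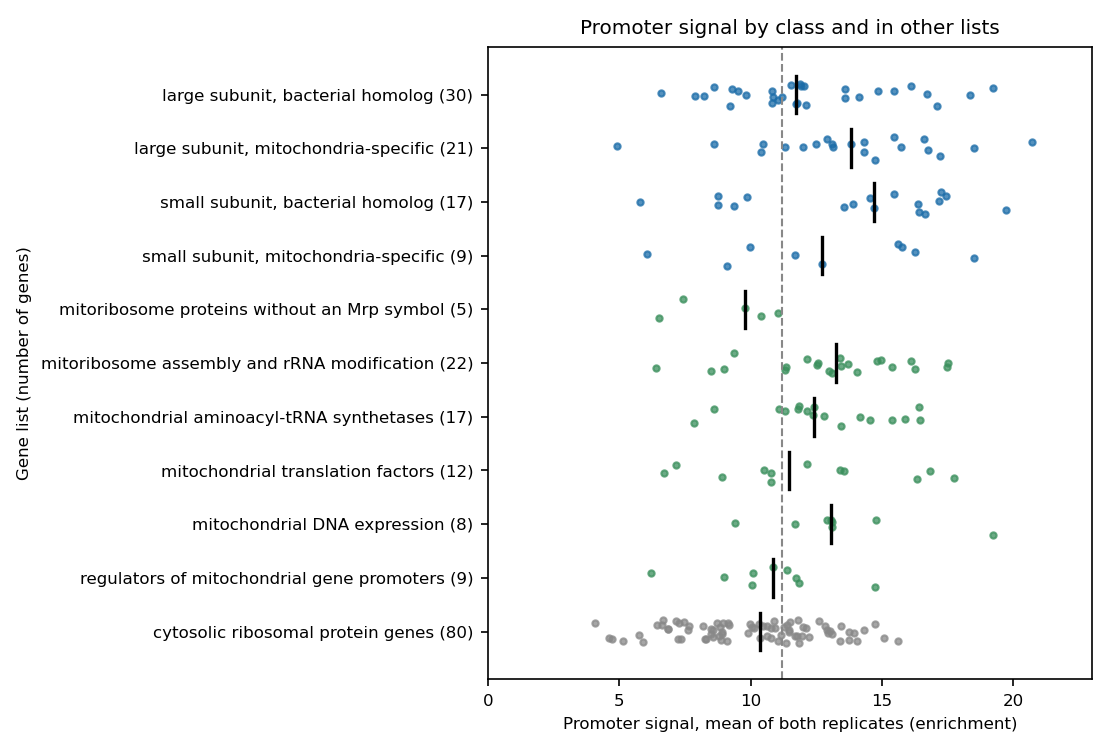
Promoter signal (enrichment, mean of both replicates) of the genes in 4 classes of the mitochondrial ribosome (blue), in 6 lists of related genes (green) and of the cytosolic ribosomal protein genes (grey), with 1 point per gene and a bar at the median. The dashed line is the median of open protein-coding genes, all lists overlap, and the cytosolic list reaches less far to the right than the mitochondrial classes.

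Related genes, of mitochondrial translation, mitochondrial DNA expression and the regulation of mitochondrial gene promoters, were open as well. Their lists held 73 genes in all, and each promoter had a region in both replicates, against 65.7% of all protein-coding genes. Of the 5 proteins of the mitochondrial ribosome without an Mrp symbol, the median signals were 9.75 and 9.82. Aurkaip1 (11.0 in both) and Dap3, a GTP-binding small-subunit protein (10.5 and 10.3), were the highest, and Gadd45gip1 (7.62 and 7.23) and Chchd1 (6.87 and 6.14) the lowest. The 22 assembly and ribosomal RNA modification factors had 13.4 and 13.1. They ran from the RNA helicase Dhx30 (18.3 and 16.7) and the GTPase Eral1 (17.5 in both) down to the methyltransferase Mrm1 (8.45 and 8.53) and the helicase Ddx28 (6.89 and 5.91). The 12 translation factors had 12.0 and 11.1. The elongation and recycling factors Gfm1 (17.8 and 17.7) and Gfm2 (17.5 and 16.1) stood at the top, and the release factor Mtrf1 (7.18 and 7.17) and the elongation factor Tufm (6.56 and 6.85) at the bottom. The order was the same in both replicates for these last 2 genes, and their values were close.

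The 17 mitochondrial aminoacyl-tRNA synthetases, which load transfer RNAs with amino acids, had 12.9 and 12.0. The highest were Pars2 (16.7 and 16.2) and Sars2 (16.5 and 16.4), and the lowest Tars2 (8.34 and 8.89) and Cars2 (8.09 and 7.62). The 8 genes of mitochondrial DNA expression had 13.2 and 12.8. Polrmt, the mitochondrial RNA polymerase, was their highest at 19.7 and 18.8, followed by the RNA-binding protein Lrpprc (14.5 and 15.1). Tfb2m, a transcription factor of mitochondria (11.8 and 11.6), and Slirp, a partner of Lrpprc (8.99 and 9.86), were the lowest. Of 9 regulators of such promoters, Nrf1 (14.6 and 14.8) and Pprc1 (11.9 and 11.7) were the highest. The coactivators Ppargc1b (9.19 and 8.80) and Ppargc1a (6.09 and 6.30) were the lowest.

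The ribosomal protein genes of the cytosol, another large set chosen by symbol, had lower median promoter signals. A promoter region in both replicates was found at 80 of 84 (95.2%), and not at Rps27rt, Rpl10l, Rpl39l and Rpl3l. The symbol rule also takes in symbols with a letter suffix, which all the genes without a region carry. Whether those serve as housekeeping genes was not checked. The 80 had medians of 10.3 and 10.4, a median percentile of 42.6 by signal and 56.4 by −log10 q. They ran from Rps29 (15.9 and 15.3) to Rpl36 (4.31 and 3.84). The ranges of the 2 sets overlapped, and by −log10 q their median percentiles were 56.3 and 56.4. Of all 84, 25 held ETS, 10 NRF1 and 5 YY1, and 13 had a coding neighbour starting within 1 kb on the other strand. Over all protein-coding genes with a coding start, the shares were 11.2%, 8.72%, 1.85% and 10.3%. Shares of ETS, NRF1, YY1 and coding neighbours above those of all genes were thus not particular to the mitochondrial set. No test was made between the sets, since genes are not replicates.

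The promoter regions had a median width of 1182.5 bp in replicate 1 and 1200.5 bp in replicate 2, against 1267 and 1271 bp for open genes. The widest were at Mrpl34 (2770 and 2710 bp), Mrps34 (2404 and 2420 bp), Mrpl40 (2124 and 2116 bp), Mrps6 (1947 and 2012 bp) and Mrpl14 (1865 and 1978 bp). Mrpl34 and Mrps34 were also among the 4 weakest by signal, and their regions reached starts of other coding genes, Abhd8 in the first case and Eme2 and Nme3 in the second. The narrowest were at Mrpl13 (684 and 638 bp), Mrps17 (676 and 754 bp), Mrpl44 (731 and 757 bp), Mrps10 (665 and 859 bp) and Mrps22 (795 and 807 bp). The gene with the highest signal thus had one of the narrowest regions. Across the 78 genes mean signal and mean width gave Spearman's rho of −0.346 and Pearson's r of −0.417, as a description. Over the 14417 open genes the same values were 0.0034 and 0.0031. The width differed most between replicates at Mrpl1 (1016 and 1872 bp, 1.84-fold).

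Summits, the points of highest signal in a region, lay near the start. The median offset from the representative start was 14 bp downstream in replicate 1 and 17 bp in replicate 2. The summit was within 100 bp of the start at 49 genes (62.8%) and 48 genes (61.5%), against 43.3% and 41.9% of open genes. It lay downstream of the start at 42 genes (53.8%) in replicate 1 and 41 (52.6%) in replicate 2, near the 50.7% and 51.3% of open genes. The summits of both replicates were a median of 1 bp apart, 29 (37.2%) were at the identical base and 49 (62.8%) within 10 bp. For open genes whose strongest regions overlap, the median was 6 bp and the shares 28.1% and 55.4%. The largest distance, 720 bp, was at Mrpl34, whose summits lay at −2026 and −1306.

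**Figure D5:**
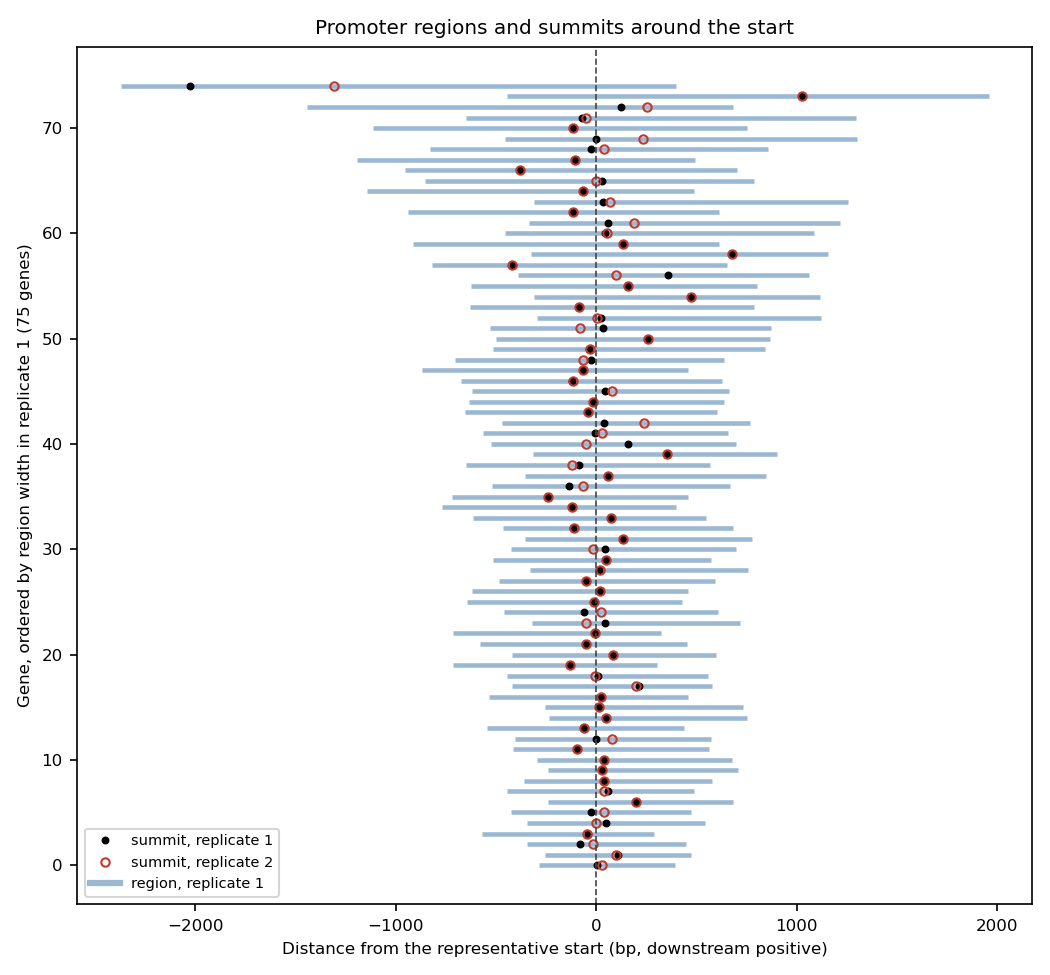
Promoter regions of replicate 1 (bars) and summits of replicate 1 (black) and replicate 2 (red circles) around the representative start (0, in bp, downstream positive) for the 75 genes whose region covers it, ordered by width. Most summits lie near the dashed line, and the 2 widest regions at the top, of Mrpl34 and Mrps34, have summits at −2026 and −1306 and at 1028.

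At 3 genes the strongest promoter region belonged to another annotated start. At Mrpl13, a core protein of the large subunit, it lay inside the gene with its summit 10406 bp downstream of the representative start (chr15:55546922-55547605 in replicate 1, mm10, signal 11.5 and 12.1), while the region at the representative start had 9.85 and 10.1. At Mrps10 it lay 2791 and 2792 bp downstream (10.4 and 9.33), and the region at the representative start had 8.24 and 8.01. At Mrpl36, a small zinc-binding protein of the large subunit, it lay at −2443 in both replicates (10.5 and 11.2), where it is also a promoter region of Ndufs6, a complex I subunit. The region at the Mrpl36 start had 7.04 and 7.25.

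Beyond their promoters, the 78 genes had as many regions as open genes of like length. Within the gene and its 20 kb flanks there was a median of 5 regions shared by both replicates, with a range of 1 to 15, and a median of 2 outside 1 kb of any annotated start, with a range of 0 to 13. Open genes had 6 and 3, but they are longer, with a median of 23285 bp against 7899.5 bp. The 2999 open genes with a length between the quartiles of the set had 5 and 2. The set's regions outside promoters numbered 191, with median signals of 6.12 and 6.14, and 52 of them lay inside the gene.

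These regions were unevenly spread over the genes. Mrpl1 (57235 bp long) had 13, Mrpl33 and Mrps28 (121773 bp) 10 each, and Mrps27 (70777 bp) 9. Mrpl22, Mrpl45, Mrps31, Mrpl39 and the pair of Mrpl46 and Mrps11 had 6 each. At Mrpl1, which has one of the weakest promoters, the strongest of them had 13.1 and 9.82 and lay inside the gene (chr5:96258736-96259793, mm10), against 7.98 and 7.81 at its promoter. At Mrps27 a region 8596 bp inside the gene had 15.2 and 16.3, below its promoter at 18.1 and 19.0 in both replicates. None was found at 14 genes, namely Mrps15, Mrpl50, Mrps17, Mrpl51, Mrps7, Mrpl18, Mrpl43, Mrpl57, Mrpl3, Mrpl41, Mrpl23, Mrps2, Mrps25 and Mrps34. The share of other genes with none is not given here, so this number cannot be called high or low. The lower quartile of such regions was 1 in the set, 2 in the longer open genes and 0 in all protein-coding genes.

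Within 1 kb of their starts the genes had 92 regions in replicate 1 and 91 in replicate 2, and 85 in each covered a start. A single region was found at 67 and 68 genes, and the most was 3. The same counts over all genes are not given here. The region just inside the 1 kb limit lay 952 bp from a start of Mrpl53 in replicate 1 (signal 6.56) and 859 bp from one of Mrps9 in replicate 2 (2.92). The nearest outside it lay 1050 bp from Mrps6 in replicate 1 (1.77) and 1050 bp from Mrpl2 in replicate 2 (7.69).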

How the data were processed

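Open regions were listed by the authors in 1 list per replicate, each made from the alignments of that replicate alone, on mm10, per the file headers and the text deposited beside the lists. The aligner and the region caller were not given in the sources used here. Region names carry words on the library type whose meaning is not stated, and the assay is named as in the labels. Column 7 is a signal (enrichment) value deposited by the authors, whose reference is not stated. Columns 8 and 9 are −log10 p and −log10 q as deposited, with a lowest −log10 q of 1.01 and 1.00. Column 5 is a deposited display score and was not used. Read depth is not in the lists.

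Regions on chromosomes 1 to 19, X and Y were used (98786 and 91403). Genes and starts came from GENCODE M21. The promoter signal of a gene is that of the strongest region within 1 kb of any of its annotated starts, and a gene is called open when such regions of both lists overlap by at least 1 bp. Joining regions that overlap between the lists gave 84380 shared regions. The representative start is that of the coding transcript with the best APPRIS tag, then support level, then length, and 85 coding genes had none. Motifs were searched on both strands of the GRCm38.p6 sequence, which RefSeq provides, in 21853 genes. Of the 78 genes, 69 are in the RefSeq promoter table.

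The 2 libraries form 1 group, so no test was possible, and counts and medians stand beside those of all genes. The p-values and confidence behind each region are the authors'. The members, lists and motifs were chosen with earlier results of these data known. Every member may be named. Values are given for the 5 genes at each end of signal and width, the 5 with the largest summit offset, replicate ratio and number of regions outside promoters, all with none, the 10 strongest with a shared start, and the 2 at each end of the other lists. The values of some listed genes are not reported here. Alternatives changed the promoter window, the starts, the flank, the region threshold, the region chosen and the motif window, and left out each replicate. The scripts, in Python 3.11.15 with numpy 2.4.6 and pandas 2.3.3, were tested on simulated data.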

Additional observations from a re-analysis of the deposited data

How the results depend on the processing

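All 78 genes had a promoter region in each of the 9 alternatives, including those without replicate 1 or 2. Of all protein-coding genes, 58.6% (50000 regions of highest −log10 p) to 68.9% (2.5 kb window) had one. The counts of ETS, NRF1, YY1, SP and starts beside a coding neighbour stayed within 1.5 times in the alternatives run for them. The median percentile by signal, 67.2, was 68.6 with the representative start only, 63.2 among the 50000 regions of highest −log10 p, 69.5 with the region nearest to a start, and 56.0 by −log10 q. That nearest region had a median width of 1214.5 bp instead of 1186.75 bp. The median summit offset, 14.5 bp downstream, was −6.25 bp from the annotated start nearest to the summit, so the side of the start depends on which start is used. The median of 5 shared regions was 1 in the gene body, 3 with 10 kb, 10 with 50 kb, 2 outside promoters and 4 when only regions whose −log10 q reaches 5 were counted. Within 100 bp of the start, NF-Y was found in 7 genes (8.97%, against 11% of all genes) and CRE in 1 (1.28%, against 2.05%). TATA was found there in 1 (1.28%, against 8.05%), AP-1 in 2 (2.56%, against 3.99%) and RUNX in 1 (1.28%, against 2.98%). Around the summits TATA was found in 1 gene in each replicate (1.28%, against 2.72% and 2.67% of open genes). RUNX was found there in 2 and 1 (2.56% and 1.28%, against 3.28% and 3.32%). The CpG ratio around the summits was 0.862 and 0.860, against 0.801 and 0.798 in open genes. The count of genes that differed by over 1.5-fold between replicates, 0 by signal, was 3 by −log10 q (Mrps18a, Mrpl12 and Mrps5) and 1 with the nearest region (Mrpl36, 7.04 and 11.2). These values of Mrpl36 came from different regions, the one at the representative start in replicate 1 and the one beside Ndufs6 in replicate 2. At the representative start both replicates were alike, with 7.04 and 7.25. The cause of the other shifts was not tested.

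Leaving out either replicate gave a median signal of 13.1 to 13.3, a width of 1182.5 to 1200.5 bp, a percentile of 67.4 to 68.8, a summit offset of 14 to 17 bp, 78 open genes and 5 shared regions. Of all protein-coding genes, 66.3% were open without replicate 1 and 67% without replicate 2. No paired analysis was possible because there is 1 group. With unknown read depth, an unlisted region may be closed or below the caller's threshold. The signal of a promoter shared by 2 genes cannot be divided between them.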

Other observations

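Signal and confidence ordered some genes differently. Mrpl18, a large-subunit protein that binds 5S ribosomal RNA in bacteria, had the highest −log10 q of the set in replicate 1 (692, and 566 in replicate 2) at a signal of 13.9 and 13.2, in a region it shares with the chaperonin gene Tcp1. Mrps14 had 682 and 615 at a signal of 17.0 and 17.6. Mrpl48, the fifth by mean signal, had a −log10 q of only 177 and 145. Mrpl3 had 73.4 and 57.6 at a signal of 12.3 and 11.9, and Mrps18b had 465 and 443 at a signal of 8.65 and 8.91. Across the 78 genes, mean signal and mean −log10 q gave Spearman's rho of 0.597 and Pearson's r of 0.521, as a description.

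The genes were spread over 17 chromosomes. Chromosome 11 held 11 of them, chromosome 17 held 8 and chromosome 6 held 7, of 1639, 1056 and 1112 protein-coding genes there.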
